A study of Rattus norvegicus with 18 samples.

Results

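The miR-183, miR-96 and miR-182 cluster is a group of microRNAs (miRNAs) whose hairpins lie side by side in the genome. All rows named miR-182, miR-183 or miR-96, with or without an arm suffix, were taken, which gave 3 of the 599 rat miRNAs listed. They were rno-miR-183-5p, rno-miR-96-5p and rno-miR-182, written below without the species prefix. No row for another arm of these was listed. The set was chosen by values of these same libraries, among them the high miR-182 level in SHR against WKY, so the levels in SHR and QDG set against WKY are a description and carry no test.

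Small RNA was sequenced from rat heart in 18 libraries, 6 from each of 3 groups. QDG libraries came from spontaneously hypertensive rats (SHR), an inbred strain that develops high blood pressure, that had been treated with QDG. SHR libraries came from the same strain without QDG, and the design text pairs them with NS. WKY libraries came from Wistar Kyoto rats, the strain commonly used as the normotensive control of SHR, labelled as normal. The sources used here spell out neither QDG nor NS and give no age, sex or dose. Each group holds 1 strain and 1 treatment, so strain, blood pressure and any handling that followed the groups cannot be told apart in SHR or QDG against WKY.

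As background, miRNAs are short RNAs that guide a silencing complex to messenger RNAs, which they recognise mainly through the seed at bases 2 to 8. The 3 miRNAs of this cluster are cut from a shared primary transcript. The cluster is best known from sensory cells: it is abundant in photoreceptors, hair cells of the inner ear and sensory neurons, and changes in the seed of miR-96 cause hearing loss in humans and mice. miR-182 is also known from activated helper T cells of mice, where it represses the transcription factor Foxo1.

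The mature sequences are shown because their seeds set which messages each member can recognise, and because near-identical sequences bear on how reads were assigned. They are given 5′ to 3′ from RefSeq (GRCr8), which held 3 of the 3 members, with the seed in capitals.
miR-183-5p: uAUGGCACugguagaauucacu
miR-96-5p: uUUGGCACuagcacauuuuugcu
miR-182: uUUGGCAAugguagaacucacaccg

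The seeds of miR-96-5p and miR-182 differed in 1 base, as did those of miR-183-5p and miR-96-5p, while miR-183-5p and miR-182 differed in 2. Over the first 22 bases miR-183-5p and miR-182 were identical at 18 positions, and miR-183-5p and miR-96-5p at 13. Over the first 23 bases miR-96-5p and miR-182 were identical at 12. No source used here states how the authors assigned a read that matched more than 1 miRNA.

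In GRCr8 the hairpins lie on the minus strand of chromosome 4, in the transcribed order Mir183 (chr4:59756044-59756153), Mir96 (chr4:59755841-59755946) and Mir182 (chr4:59752246-59752307). Mir183 and Mir96 are 97 bases apart and Mir96 and Mir182 are 3533 bases apart, so that the whole locus spans 3908 bases. It lies between Nrf1, which encodes a transcription factor of mitochondrial genes, 14.1 kb away, and Ube2h, which encodes a ubiquitin-conjugating enzyme, 45.9 kb away.

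The deposited values are normalised read counts. They equalled each miRNA's reads per 1000000 of a read number particular to the library and are called RPM here. Total miRNA reads were 6805472 to 8574447 in QDG, 6420666 to 10169581 in SHR and 6465025 to 9463554 in WKY. The read number behind the RPM scale was smaller than this total in every library. It ran from 4449279 (SHR replicate 1) to 7403775 (SHR replicate 6), so that 1 read was worth 0.135 to 0.225 RPM. Heart muscle miRNAs (miR-1, miR-133, miR-208 and miR-499 entries) held 36.2% to 40.3% of the total miRNA reads in QDG, 37.0% to 41.8% in SHR and 35.9% to 43.2% in WKY. On the RPM scale, which has another base, the same entries summed to 490772 to 581786 in QDG, 508888 to 592229 in SHR and 504675 to 623872 in WKY. All 3 members were scarce next to these. By group mean, miR-182 ranked 184th of 599 in QDG, 193rd in SHR and 273rd in WKY.

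miR-182, the most abundant member in all 3 groups, had a lowest, median and highest level of 15.9, 40.8 and 48.4 RPM in QDG. In SHR these were 23.5, 29.8 and 34.8 RPM, and in WKY 5.82, 6.66 and 7.59 RPM. Each QDG and each SHR library thus lay above each WKY library. The means were 37.5 ± 11.4 RPM in QDG, 29.7 ± 4.60 RPM in SHR and 6.74 ± 0.722 RPM in WKY (SD, n = 6 each), a ratio of 5.57 for QDG over WKY and 4.41 for SHR over WKY. These levels rest on 77 to 290 reads per library in QDG, 135 to 196 in SHR and 26 to 46 in WKY.

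miR-96-5p, whose seed changes cause deafness, had a lowest, median and highest level of 4.33, 6.82 and 8.69 RPM in QDG. It had 3.92, 5.99 and 7.64 RPM in SHR, and 0.828, 1.05 and 1.95 RPM in WKY. The QDG and SHR ranges again lay wholly above that of WKY. Its means were 6.83 ± 1.75 RPM in QDG, 5.66 ± 1.41 RPM in SHR and 1.21 ± 0.427 RPM in WKY (SD, n = 6 each), a ratio of 5.63 for QDG over WKY and 4.66 for SHR over WKY. It was the scarcest member, with 21 to 47 reads in QDG libraries, 21 to 36 in SHR libraries and 4 to 9 in WKY libraries. Because it reached the filter of 1 RPM in 3 of 6 WKY libraries but in all QDG and SHR libraries, it entered the tests through the groups in which it is high.

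miR-183-5p, the first hairpin of the transcript, had a lowest, median and highest level of 7.02, 10.6 and 13.4 RPM in QDG, 6.09, 7.83 and 10.5 RPM in SHR, and 2.38, 3.93 and 4.27 RPM in WKY. Here too no QDG or SHR library overlapped a WKY library, but the gap was smaller than for the other members. The means were 10.7 ± 2.30 RPM in QDG, 8.0 ± 1.91 RPM in SHR and 3.55 ± 0.823 RPM in WKY (SD, n = 6 each), a ratio of 3.0 for QDG over WKY and 2.25 for SHR over WKY. Between 34 and 79 reads stood behind each QDG level, 31 to 61 behind each SHR level and 11 to 28 behind each WKY level.

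**Figure D1:**
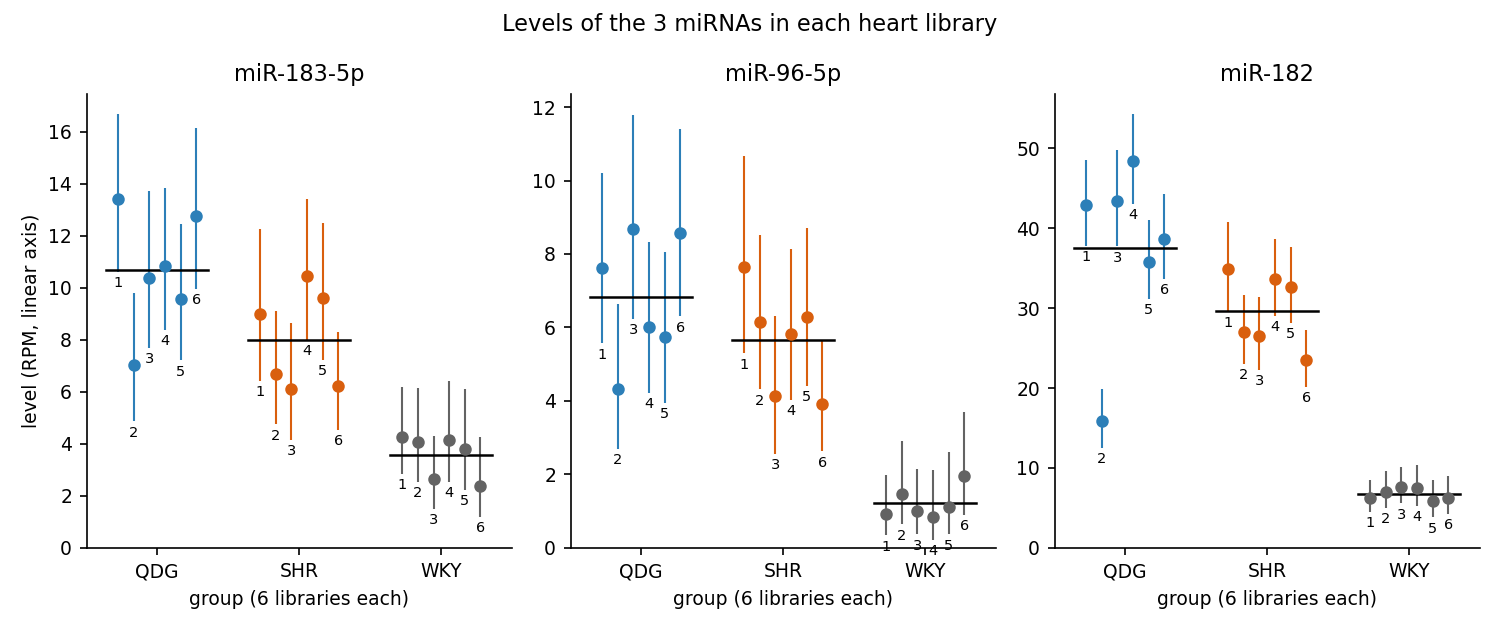
Level of each member in RPM on a linear axis in the 6 QDG, 6 SHR and 6 WKY libraries. Points are libraries numbered by replicate, vertical lines are exact Poisson 95% intervals of the reads (counting error only) and horizontal lines are group means; all QDG and SHR points lie above all WKY points in each panel, and QDG replicate 2 is the lowest QDG library in all 3.

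Set beside all 410 miRNAs that passed the filter, QDG lay wholly above WKY for 3 of 3 members and for 3.9% of all tested miRNAs, and SHR lay wholly above WKY for 3 of 3 members and for 3.41%. The members were proposed from these values, so nothing is read from the counts. Ordered by the ratio of group means with 1 RPM added to each, miR-182 stood 1st, miR-96-5p 2nd and miR-183-5p 5th of 410 in QDG over WKY, and 1st, 3rd and 8th in SHR over WKY. On the fitted scale, log2(RPM + 1), miR-182 differed by 2.24 ± 0.18 in QDG against WKY and 1.98 ± 0.18 in SHR against WKY (SE). For miR-96-5p the differences were 1.81 ± 0.18 and 1.58 ± 0.18, and for miR-183-5p 1.35 ± 0.17 and 0.98 ± 0.17. Adding 1 RPM shrinks these differences most for miR-96-5p, whose WKY level is close to 1 RPM. Both comparisons share the WKY libraries, so they are not separate observations. The SEs carry no test, since the members were proposed from these values.

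**Figure D2:**
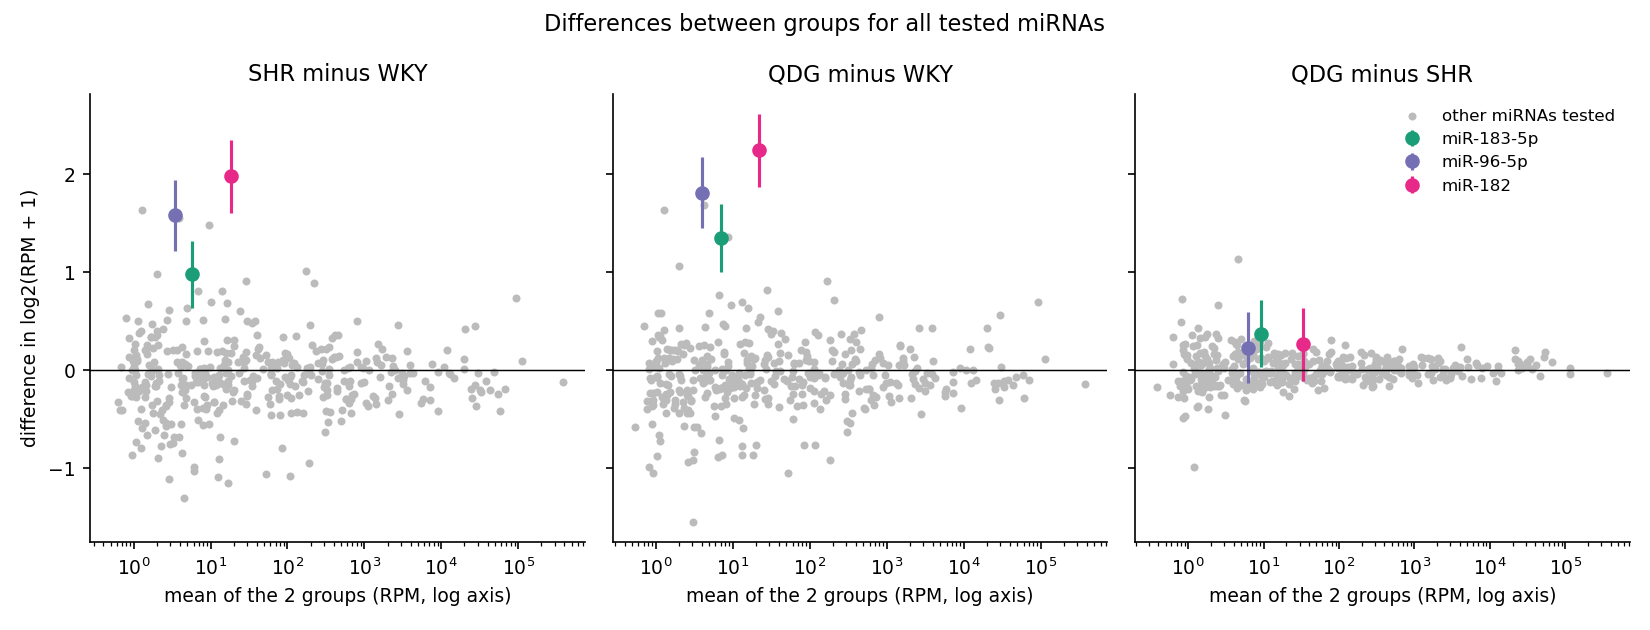
Difference in log2(RPM + 1) against the mean level of the 2 groups (log axis) for 410 miRNAs, in SHR minus WKY, QDG minus WKY and QDG minus SHR. Grey points are other miRNAs, coloured points are the members and their vertical lines are 95% intervals. The members lie at 0.98 to 2.24 in the comparisons with WKY and at 0.23 to 0.38 in QDG minus SHR. Their intervals against WKY carry no test, since the members were proposed from these values.

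The question of the treatment comparison is whether QDG changed these miRNAs within the SHR strain, and no change was detected. By limma, miR-182 differed by 0.27 (95% interval -0.11 to 0.64, unadjusted p = 0.154), miR-96-5p by 0.23 (-0.13 to 0.59, unadjusted p = 0.202) and miR-183-5p by 0.38 (0.03 to 0.72, unadjusted p = 0.0341) on the log2 scale in QDG minus SHR. Each had an adjusted p of 0.983 over 410 miRNAs in limma, and 5 of 6 QDG libraries lay above the SHR mean for each member. In all, 0 of 410 miRNAs (0%) were called, with 15 at an unadjusted p under 0.05, and edgeR and DESeq2 on the recovered reads also called 0. The intervals still allow a rise in RPM + 1 of up to 1.56-fold for miR-182, 1.51-fold for miR-96-5p and 1.65-fold for miR-183-5p. In RPM itself such a rise would be larger. SHR libraries also entered the values from which the members were proposed.

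QDG replicate 2 had the lowest level of all 3 members within QDG: 15.9 RPM of miR-182, against 35.8 to 48.4 RPM in the other 5 libraries. Its gap to the next library over the range of the group was 0.613 for miR-182, 0.400 for miR-183-5p and 0.322 for miR-96-5p, each under Dixon's 95% limit for 6 values. It was also the lowest QDG library for miR-190b-5p, miR-452-5p and miR-132-5p, 3 of the 5 other miRNAs with profiles most like miR-182. Those 5 were picked over all 18 libraries, this one included, which favours miRNAs that are low in it. Nothing is therefore read from that count. The depth of QDG replicate 2, 6805472 reads, was the lowest of the QDG group. Its heart muscle miRNAs held 40.3% of its total miRNA reads, the highest such share of the group. The part of depth and heart muscle miRNAs in its low values was not tested. Without it the difference of miR-182 in QDG minus SHR was 0.49, with an unadjusted p of 0.000717 and an adjusted p of 0.294 in limma. All 5 remaining QDG libraries then lay above all 6 SHR libraries, but for how many of all tested miRNAs this holds was not counted. With all 6 QDG libraries, 0 of 410 tested miRNAs lay wholly above SHR, which is no background for the 5 libraries left. QDG replicate 2 was singled out after its values were seen, so nothing is read from leaving it out.

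The members' mean shares of the cluster's reads were close in QDG and SHR, while WKY differed mainly in miR-182 and miR-183-5p. The mean share of miR-182 was 67.3% in QDG, 68.7% in SHR and 58.6% in WKY. The WKY shares rest on only 48 to 75 reads of the cluster per library. miR-182 held 58.3% to 74.2% of the cluster's reads in QDG, 67.3% to 72.2% in SHR and 54.2% to 67.6% in WKY. The share of miR-183-5p was 16.6% to 25.8% in QDG, 16.6% to 21.0% in SHR and 22.4% to 37.3% in WKY. The ratio of miR-182 to miR-183-5p averaged 3.48 ± 0.811 in QDG, 3.78 ± 0.419 in SHR and 2.01 ± 0.599 in WKY (SD, n = 6 each). Its range in SHR, 3.21 to 4.35, did not overlap that in WKY, 1.46 to 2.88, while the QDG range of 2.26 to 4.46 did. The ratio of miR-182 to miR-96-5p averaged 5.52 ± 1.53 in QDG, 5.39 ± 0.815 in SHR and 6.11 ± 2.11 in WKY (SD, n = 6 each), and these ranges overlapped. The ratios come from the contrast the members were proposed from and were not tested.

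**Figure D3:**
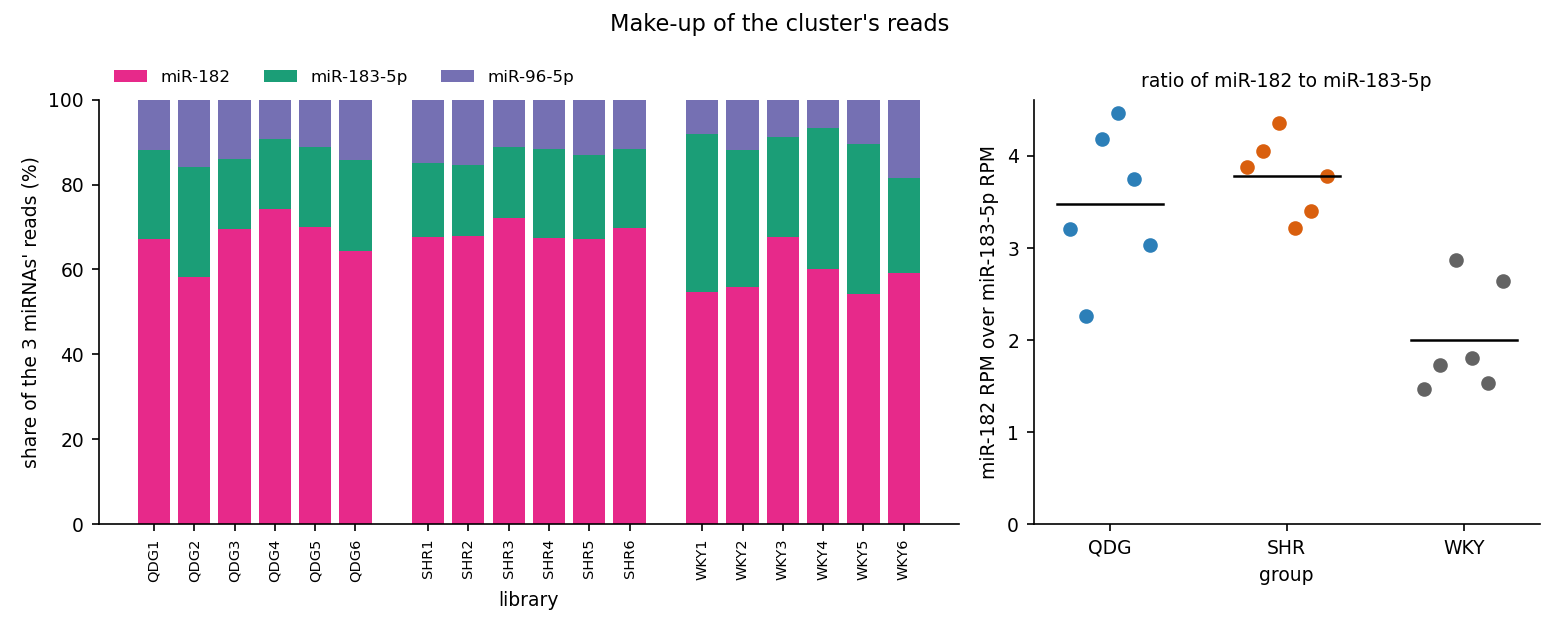
Left, the share of the cluster's reads held by miR-182, miR-183-5p and miR-96-5p in each library (%); right, the ratio of miR-182 to miR-183-5p in RPM per library, with lines at group means. The miR-183-5p share reaches 37.3% in WKY and stays at or under 25.8% in QDG and 21.0% in SHR.

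The spread between libraries can be set beside the spread that counting alone gives. For miR-182 the coefficient of variation was 30.5% in QDG, 15.5% in SHR and 10.7% in WKY, where counting error alone would give 6.98%, 7.81% and 16.8%. Without QDG replicate 2 the QDG value was 11.5%, below that of SHR. For miR-183-5p the values were 21.6%, 23.8% and 23.2%, beside 13.1%, 15.0% and 23.2% from counting. For miR-96-5p they were 25.6%, 25.0% and 35.2%, beside 16.5%, 18% and 40.1%. At this depth, differences among WKY libraries in any member could not be told from counting error.

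Within QDG and within SHR the members tended to be high or low in the same libraries, although no relation passed correction. The level of each pair on the log2 scale was compared over the 6 libraries of each group, 9 relations in all. Pearson's r was 0.74 to 0.83 in QDG, 0.70 to 0.92 in SHR and -0.55 to -0.08 in WKY, and Spearman's rho 0.54 to 0.60, 0.54 to 0.83 and -0.71 to -0.14. By exact permutation of the pairings, the smallest p of Pearson's r was 0.0306 and that of Spearman's rho 0.0583, both for miR-182 with miR-96-5p in SHR. The smallest adjusted values were 0.135 for r and 0.382 for rho. Without the 2 libraries farthest from the median of the first member, which left 4, r was 0.43 to 0.72 in QDG, 0.57 to 0.996 in SHR and -0.41 to 0.48 in WKY. The 3 levels of a library share its depth and scaling.

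The miRNAs encoded near the cluster were set beside it. Within 5 Mb of the cluster, 6 other listed miRNA entries are encoded, of which 4 passed the filter. In SHR against WKY, 0 of 4 rose and 2 fell, beside 8.05% of all 410 miRNAs higher and 15.1% lower. In QDG against WKY, 0 of 4 rose and 2 fell as well, beside 7.32% higher and 10.5% lower. The background split depends on the scaling: upper quartile scaling gave 55 higher and 28 lower in QDG against WKY in place of 30 and 43, and 49 higher and 38 lower in SHR against WKY in place of 33 and 62. The medians of the 4 were -0.24 in each comparison, against -0.07 in SHR and -0.06 in QDG against WKY for all miRNAs.

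miR-129-5p, a neuronal miRNA encoded 1163 kb from the cluster and also at another locus, had 5.04 ± 1.90 RPM in QDG, 6.24 ± 1.23 RPM in SHR and 9.53 ± 0.795 RPM in WKY (SD, n = 6 each). It fell by 0.86 on the log2 scale in QDG against WKY (limma adjusted p = 0.000516) and by 0.55 in SHR against WKY (limma adjusted p = 0.0192). The call in SHR was lost under upper quartile scaling (limma adjusted p = 0.0501). miR-29b-3p, which represses collagen messages, is encoded 862 kb away on the other side and also at another locus. It had 440.5 ± 57.4 RPM in QDG, 433.8 ± 30.8 RPM in SHR and 576.9 ± 86.2 RPM in WKY, a difference of -0.39 in QDG against WKY (limma adjusted p = 0.0102) and -0.40 in SHR against WKY (limma adjusted p = 0.00711). Reads of both cannot be assigned to 1 of their loci. Beside miR-29b-3p, miR-29a-3p had -0.10 and -0.08 and miR-29a-5p 0.29 and 0.20 in QDG and SHR against WKY, without passing the test (limma adjusted p = 0.0977 to 0.624). miR-29a-5p passed in QDG against WKY without WKY replicate 2, and under TMM, RLE and upper quartile scaling, edgeR, limma-voom and DESeq2.

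**Figure D4:**
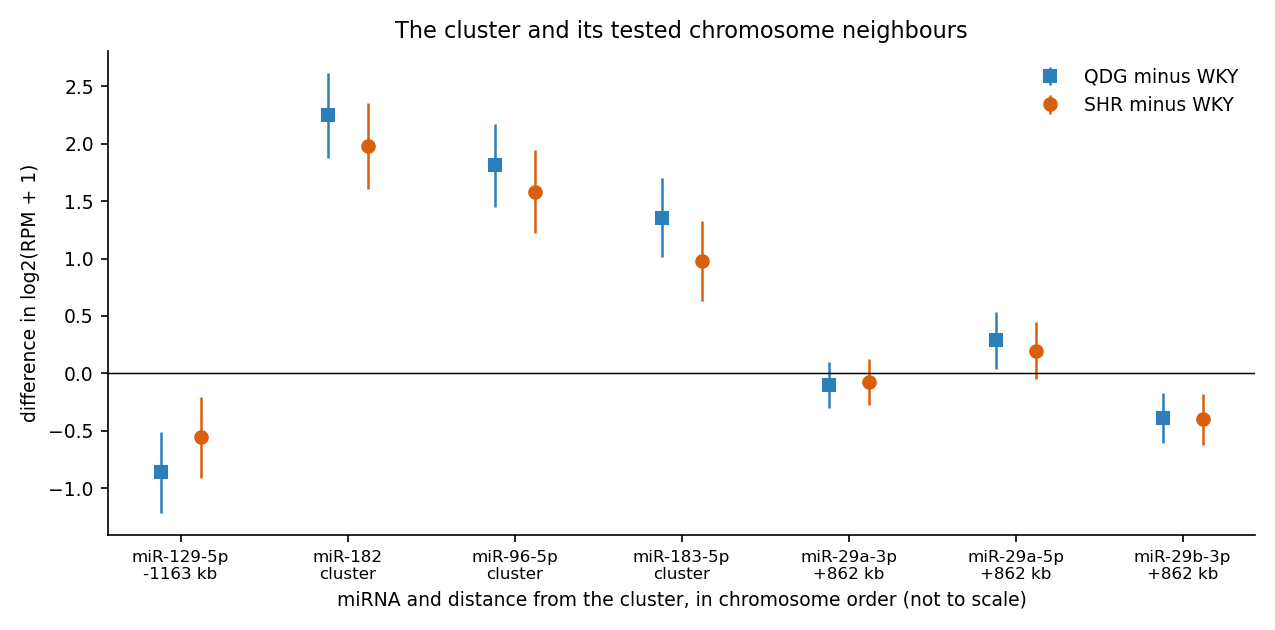
Difference in log2(RPM + 1) for the members and the 4 tested miRNAs within 5 Mb, in chromosome order and with distance from the cluster in kb. Squares are QDG minus WKY and circles SHR minus WKY, with 95% intervals. The members lie at 0.98 to 2.24, miR-129-5p at -0.86 and -0.55 and miR-29b-3p at -0.39 and -0.40. The intervals of the members carry no test, since the members were proposed from these values.

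Outside the cluster, 0 listed miRNAs with a RefSeq sequence had the seed of a member, and 10 had one that differed in 1 base, of which 9 passed the filter. Of these 9, 0 rose and 1 fell in SHR against WKY (median 0.01, against -0.07 over all miRNAs; background 8.05% higher and 15.1% lower). The lower one was miR-547-3p, whose seed is 1 base from that of miR-96-5p, with 113.2 RPM in SHR and 153.2 RPM in WKY (log2 -0.43, limma adjusted p = 0.00566). The other 8, among them miR-25-3p, miR-92a-3p, miR-92b-3p, miR-363-3p and miR-32-5p of a common seed family, lay between -0.35 and 0.26 without passing the test. In QDG against WKY the median of the 9 was -0.21, against -0.06 over all miRNAs, with 0 higher and 1 lower, again miR-547-3p (log2 -0.39, limma adjusted p = 0.0111, lost under upper quartile scaling at 0.0695; background 7.32% higher and 10.5% lower). Without WKY replicate 1 this became 3 lower, with miR-652-3p and miR-92a-3p. In SHR against WKY, with 1 library left out the count reached 1 higher or 2 lower: miR-374-3p passed without SHR replicate 3 (-0.49, limma adjusted p = 0.0426), miR-92a-3p without WKY replicate 1 (-0.35, limma adjusted p = 0.0205) and miR-425-5p without WKY replicate 5 (0.32, limma adjusted p = 0.0323).

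The profiles most like that of miR-182 were sought among 248 other miRNAs with a mean of at least 10 RPM. Each profile was the log2(RPM + 1) level in 18 libraries minus its own WKY mean, and likeness was the root mean square difference from miR-182. Of these, miR-190b-5p lay closest at 0.67, beside 0.44 for the fellow member miR-96-5p and 0.82 for miR-183-5p. The next were miR-34a-5p, a target of p53, at 1.01, miR-452-5p at 1.08, miR-208b-3p, encoded in the beta-myosin heavy chain gene, at 1.16, and miR-132-5p, whose precursor responds to the factor CREB, at 1.18. miR-190b-5p had 13.0 ± 1.81 RPM in QDG, 14.2 ± 1.89 RPM in SHR and 4.60 ± 1.84 RPM in WKY (SD, n = 6 each). The floor of 10 RPM was not applied to the members, of which miR-96-5p and miR-183-5p lie under it. Over all 409 other miRNAs that passed the filter, an order added after the data were seen, miR-96-5p still came first, followed by miR-293-5p at 0.48, miR-184 at 0.58, miR-190b-5p and miR-183-5p. miR-184 had 7.11 RPM in QDG, 6.24 RPM in SHR and 1.45 RPM in WKY, and miR-293-5p had 2.47 RPM in QDG, 2.46 RPM in SHR and 0.0993 RPM in WKY. The WKY mean of miR-293-5p is under the worth of 1 read in WKY libraries (0.153 to 0.224 RPM). It passed the filter through QDG and SHR, and its place in this order depends on the added 1 RPM.

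Marker lists of cell types in which the cluster or its members are known were examined beside it. In bulk tissue, fewer cells of a type and less RNA per cell cannot be told apart. The sensory, pineal and neuroendocrine list summed to 1247 to 2064 RPM in QDG, 1443 to 2021 RPM in SHR and 940 to 1635 RPM in WKY. Of its 8 tested entries 1 was higher and 0 lower in SHR against WKY: miR-204-5p, abundant in retinal pigment epithelium, with 35.2 RPM in SHR and 24.6 RPM in WKY (log2 0.50, limma adjusted p = 0.0134). miR-483-3p was called lower too without SHR replicate 6 (limma adjusted p = 0.0347), WKY replicate 3 (0.0409) or WKY replicate 4 (0.0269). miR-375-3p, a defining marker of neuroendocrine cells, reached at most 2.60 RPM in any library. miR-7a-5p of the same list averaged 1630.8 RPM in QDG, 1643.4 RPM in SHR and 1377.9 RPM in WKY. The neuronal list summed to 1598 to 1924 RPM in QDG, 1542 to 1965 RPM in SHR and 1437 to 1782 RPM in WKY. In SHR against WKY, 2 of its 12 tested entries were higher and 1 lower. They were miR-132-3p (0.70, limma adjusted p = 0.00684), miR-218a-5p (0.33, limma adjusted p = 0.0127) and miR-129-5p. miR-212-3p was also called higher without SHR replicate 3 (limma adjusted p = 0.0382) and miR-153-3p without SHR replicate 6 (limma adjusted p = 0.0473). The defining miR-124-3p reached at most 1.83 RPM, while miR-128-3p of the same list averaged 836.9 RPM in QDG, 850.9 RPM in SHR and 741.9 RPM in WKY.

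The epithelial list summed to 1177 to 1329 RPM in QDG, 1194 to 1295 RPM in SHR and 1112 to 1203 RPM in WKY. Its defining marker miR-205 reached at most 2.74 RPM, while its entry miR-192-5p averaged 851.1 RPM in QDG, 825.5 RPM in SHR and 779.7 RPM in WKY. Of 10 tested entries 1 was higher in SHR against WKY, miR-200c-3p, with 45.4 RPM in SHR and 35.3 RPM in WKY (log2 0.36, limma adjusted p = 0.0238). Its call was lost without SHR replicate 1 (limma adjusted p = 0.0527), 2 (0.0548) or 6 (0.0539) or WKY replicate 1 (0.0501) or 2 (0.0637), and miR-200b-3p was called lower without SHR replicate 3 (0.0228). The leukocyte list summed to 10217 to 13680 RPM in QDG, 11104 to 12728 RPM in SHR and 10799 to 15350 RPM in WKY. Of 12 tested entries 2 were higher in SHR against WKY, miR-146b-5p (0.51, limma adjusted p = 0.0122) and miR-155-5p (0.48, limma adjusted p = 0.0128), both of activated immune cells. The call of miR-146b-5p was lost without WKY replicate 1 and SHR replicate 5 together (limma adjusted p = 0.0533). With 1 library left out, 0 to 3 leukocyte entries were also called lower: miR-146a-5p without SHR replicate 4 (limma adjusted p = 0.0451), miR-150-5p and miR-181b-5p without SHR replicate 6 (0.0490 and 0.0470), all 3 without WKY replicate 1 (0.0432, 0.0109 and 0.00563) and miR-146a-5p without WKY replicate 3 (0.0326). Of 4 red blood cell entries 0 were called, and of 7 heart muscle entries 2 were higher, miR-1-3p (0.74) and miR-208b-3p (0.89), with miR-133b-3p and miR-208a-3p called lower without WKY replicate 1 (limma adjusted p = 0.0148 and 0.0349). With all libraries, the remaining heart muscle entries (miR-133b-3p, miR-499-5p, miR-208a-3p, miR-1b and miR-133a-3p) lay between -0.33 and -0.01 without passing the test. In QDG against SHR, 0 entries of these lists were called by limma. In SHR against WKY the median differences were 0.06 for the sensory, pineal and neuroendocrine list, 0.07 for the neuronal, 0.07 for the epithelial and -0.0043 for the leukocyte list, against -0.07 over all miRNAs. In QDG against WKY they were 0.07 for the first of these lists, 0.22 for the neuronal, 0.08 for the epithelial and 0.0048 for the leukocyte list, against -0.06. The medians of the red blood cell list were 0.03 in SHR and 0.14 in QDG against WKY. Those of the heart muscle list were -0.12 and -0.07. In SHR against WKY, 8.05% of all miRNAs were higher and 15.1% lower. In QDG against WKY the calls were 1 higher and 1 lower in the first list, 2 higher and 1 lower in the neuronal, 0 in the epithelial and 3 higher in the leukocyte list, with 7.32% of all miRNAs higher and 10.5% lower. There 0 red blood cell entries were called, and 2 heart muscle entries were higher, miR-1-3p (0.70) and miR-208b-3p (0.72). The lower entry of the first list was miR-483-3p (log2 -0.93, limma adjusted p = 0.00133). The higher one, miR-204-5p (0.42, limma adjusted p = 0.0450), lost its call without QDG replicate 4, 5 or 6 or WKY replicate 1, 3, 4 or 6, and miR-375-3p was called lower without WKY replicate 2. In the neuronal list miR-153-3p was called higher without WKY replicate 6. In the leukocyte list, leaving out 1 library gave 1 to 3 higher and 0 to 2 lower: miR-146b-5p alone was higher without QDG replicate 1, 3, 5 or 6 or WKY replicate 1 or 3, and 2 were higher without WKY replicate 2, 4 or 6. miR-150-5p and miR-181b-5p were lower without WKY replicate 1. miR-200c-3p was called in QDG against WKY under TMM (limma adjusted p = 0.0477), RLE (0.0349) and upper quartile scaling (0.0199). The part of other cell types in the levels of the cluster was not tested.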

How the data were processed

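The labels' protocols describe Trizol extraction of RNA from heart tissue and libraries made with the NEBNext small RNA kit from 1 µg. FastQC, TopHat2 and limma appear in the submitters' processing notes without roles. No source used here gives the genome build, the miRNA annotation or the treatment of ambiguous reads. Per the file headers, the deposited signal of each miRNA is a normalized read count. Multiplied by 1 whole number per library, 10782 of 10782 deposited values came within 0.01 of whole reads. Groups and replicate numbers came from the titles. The labels do not say that libraries came from separate rats, and p-values then measure the spread between these libraries only.

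The members and lists were chosen with earlier results of these data known. miRNAs at 1 RPM or more in at least 6 libraries (410 of 599) entered limma (3.58.1, R 4.3.3) on log2(RPM + 1) of all 18 libraries, with trended and robust moderation, no covariate and Benjamini-Hochberg adjustment over all 410 (threshold 0.05). edgeR (4.0.16), DESeq2 (1.42.0) and limma-voom ran on the recovered reads as alternatives, and the fit was tested on simulated data. Intervals of reads are exact Poisson 95% intervals and cover counting error only. Named miRNAs were the members, the 5 most like miR-182, chromosome neighbours, seeds within 1 base, and called entries of the marker lists; miRNAs of these lists that passed with a library left out were named after their values were seen. Sequences and positions came from RefSeq, which matched 543 of 599 names.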

Additional observations from a re-analysis of the deposited data

Results flagged for a closer look

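The ratio of miR-96-5p to miR-183-5p was 0.818 in WKY replicate 6, against 0.200 to 0.375 in the other 5 WKY libraries, and stood farther from them than Dixon's 95% limit for 6 samples allows. It rests on 9 reads of miR-96-5p and 11 of miR-183-5p. Of 18 groups of 6 values examined, 1 stood out so, and chance gives about 1 in 20. Its cause was not tested.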

How the results depend on the processing

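The higher level of each member in QDG and SHR against WKY kept its sign under every alternative run. Only its size on the log2 scale moved. As no QDG or SHR library overlapped a WKY library, leaving out a library or changing the pseudocount could not reverse the sign. The members were also proposed from these values, so nothing is read from the kept sign. With a pseudocount of 5 the differences in QDG and SHR against WKY were 1.80 and 1.55 for miR-182, 0.92 and 0.77 for miR-96-5p, and 0.87 and 0.60 for miR-183-5p. For miR-96-5p they were 2.51 and 2.25 in edgeR, 2.46 and 2.19 in limma-voom and 2.55 and 2.30 in DESeq2 on the recovered reads, models that add no pseudocount of 1 RPM. The other scalings (TMM, RLE, upper quartile, and reads without the 10 most abundant miRNAs) shifted the median of all miRNAs by at most 0.0984. With 1 library left out, the differences in SHR against WKY were 1.93 to 2.04 for miR-182, 1.5 to 1.67 for miR-96-5p and 0.90 to 1.04 for miR-183-5p; in QDG against WKY they were 2.16 to 2.47 for miR-182, 1.74 to 1.92 for miR-96-5p and 1.27 to 1.46 for miR-183-5p. In QDG against SHR no member passed under any alternative (limma, edgeR or DESeq2 adjusted p = 0.294 to 0.999), and leaving out 1 library gave 0.18 to 0.49 for miR-182, 0.15 to 0.33 for miR-96-5p and 0.31 to 0.48 for miR-183-5p. The number of miRNAs called was 66 to 100 in SHR against WKY, 57 to 87 in QDG against WKY and 0 in QDG against SHR, while leaving out 1 library gave 81 to 106 in SHR against WKY, 64 to 80 in QDG against WKY and 0 in QDG against SHR. At 10 RPM in 6 libraries, only miR-182 of the members was left. The replicate numbers were not taken to pair libraries, since not every same-numbered pair correlated above 0.1: 1 of 6 did in QDG and SHR (median -0.04), 4 of 6 in QDG and WKY (median 0.11, all 6 positive) and 2 of 6 in SHR and WKY (median 0.04). In these, 0, 1 and 0 of 6 libraries correlated best with their own number. With the replicate number as a block, 77 miRNAs were called in QDG against WKY, 93 in SHR against WKY and 0 in QDG against SHR, and miR-182 differed by 0.27 in QDG against SHR (limma adjusted p = 0.981).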
